A study of Saccharomyces cerevisiae with 24 samples.

Results

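The libraries described here are DMS-MaPseq profiles of precursor ribosomal RNA in budding yeast (Saccharomyces cerevisiae) pre-40S particles that carried wild-type Rrp5, treated with DMS or left untreated. They are 6 of the 24 libraries of the series and 2 of its 8 groups, with 3 biological replicates each per the series design. The treated group, WT_Rrp5_H375A_DMS, received 1% dimethyl sulfate (DMS) for 5 min at 30 °C. The untreated group, WT_Rrp5_H375A_noDMS, was carried through the same steps with DMS left out. Both groups share wild-type Rrp5, the change H375A, growth in YPD to mid-log phase, purification through Utp9_TAP and the presence of Bacillus subtilis RNase P RNA in the reaction. The labels do not name the protein with H375A, and none of these libraries is without it. A nucleotide was included when its effective depth was at least 50 in all 6 libraries, where effective depth is the number of reads the authors counted as informative at that position. This held for 2110 of the 2861 nucleotides of the 5′ external transcribed spacer (5′ ETS), 18S and internal transcribed spacer 1 (ITS1), namely 561 in the 5′ ETS, 1481 in 18S and 68 in ITS1. RDN37, the whole precursor of 6858 nucleotides, held 3883 such positions. The question asked of each nucleotide is whether DMS raised its mutation rate, which is read as the base being open to the chemical in the RNA sampled. The profiles do not assign reads within 18S to precursor or mature RNA, and the share of each was not tested.

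The small subunit of the yeast ribosome is built on a long transcript in which 18S lies between the 5′ ETS and ITS1. Early in assembly the 5′ ETS holds a large complex of proteins and the small nucleolar RNA U3 (the SSU processome, of which Utp9 is a subunit), and U3 base-pairs with segments of the 5′ ETS and of 18S. Cleavage at A1 frees the 5′ end of 18S, and cleavage at A2 within ITS1 separates the small-subunit branch from the large-subunit one. Rrp5 is an assembly protein that binds the precursor and is needed for the cleavages that make both subunits. DMS methylates the Watson-Crick face of adenine and cytosine where neither a base pair nor a protein shields it, and the reverse transcriptase TGIRT-III copies such a base as a mismatch. Reactivity below is the mean treated rate minus the mean untreated rate, in percentage points of reads.

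The stretches around the nucleotides with the highest reactivity are shown first, 20 bases to either side, since the results below turn on them. They are the RNA strand of RDN37, from rDNA on chromosome XII, and positions count from 1 at the start of each region. Capitals mark each adenine or cytosine whose rate rose with DMS by edgeR's test. Lower-case a and c did not pass, had too few mutations for the test, or were not read deeply enough.
5′ ETS G537 to U577, centred on A557: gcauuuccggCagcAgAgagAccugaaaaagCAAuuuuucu
5′ ETS G434 to A474, centred on C454: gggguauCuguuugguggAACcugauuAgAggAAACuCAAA
18S A1651 to A1691, centred on A1671: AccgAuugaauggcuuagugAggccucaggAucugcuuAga
18S U1055 to U1095, centred on C1075: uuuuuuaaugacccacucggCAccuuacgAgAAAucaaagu
ITS1 G65 to C105, centred on A85: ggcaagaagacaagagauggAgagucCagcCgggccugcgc
The 41 bases around 5′ ETS C454 held 14 risen nucleotides among 17 A and C, all of which were read deeply enough. Those around 18S A1671 held 5 among 18, of which 17 were read deeply enough. Around C1075 the depth minimum was met by 15 of 23 A and C, and around ITS1 A85 by 12 of 22.

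The libraries differed in depth in ways that bear on these results. Total mutations over RDN37 were 24821, 23878 and 17041 in treated replicates 1, 2 and 3, against 1250, 249088 and 8454 in untreated replicates 1, 2 and 3. Median effective depth was 377, 310 and 194 in treated libraries and 54, 610 and 402 in untreated ones. The spacers that mark precursor RNA were well read, with median depths in treated replicates 1, 2 and 3 of 646.5, 664 and 492.5 in the 5′ ETS, 436, 422 and 260 in 18S, and 152 to 269 in ITS1. Untreated replicate 1 was the shallow library. A rate of 0% in it alone says little, and the upper limits given below for 0 mutations are over the 3 untreated libraries together. In the 5′ ETS it alone met the minimum at 561 nucleotides, in 18S at 1481 and in ITS1 at 68, the very numbers that were included. 18S A1384 and ITS1 A125 had exactly 50 reads in their shallowest library and stayed in, while ITS1 A156, with 39, did not.

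The start of 18S carried an excess of reads in the untreated libraries. Between C4 and G175, a span of 172 nucleotides, the highest depth was 1525, 399112 and 6203 in untreated replicates 1, 2 and 3, which was 21.8, 553 and 12.1 times their own median depth in 18S. In treated libraries the highest depth there was 1.03, 1.28 and 1.02 times the median. The span held 2.24%, 2.91% and 2.23% of the treated libraries' read depth over RDN37, against 22.8%, 87.7% and 13.8% of the untreated ones'. It also held 91.0% of all mutations of untreated replicate 2. The excess was present without DMS in each of the 3 libraries and was uneven in size between them. At the 166 included nucleotides of the span the untreated rates therefore rest on a different depth profile from the treated ones. Mean rates over all A and all C of 18S are given with and without them. Other results on 18S include them unless stated. The source of these reads was not tested.

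**Figure D1:**
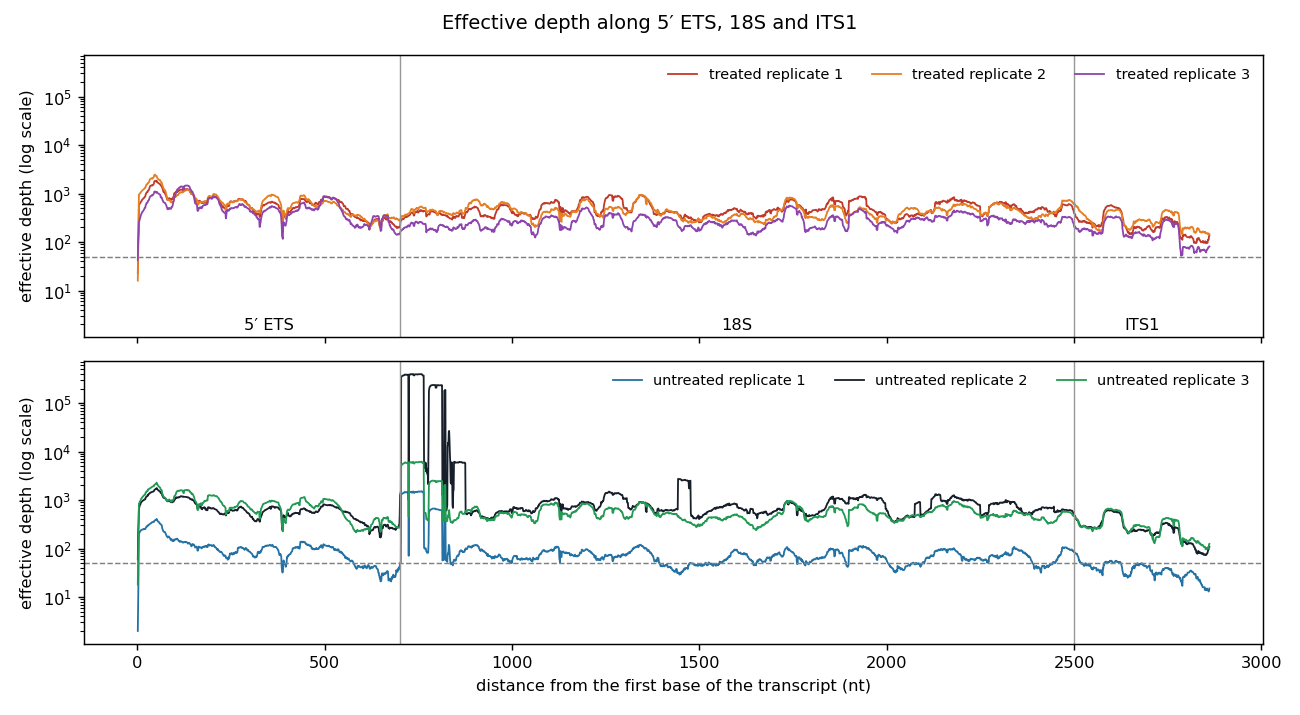
Effective depth (log scale) at each nucleotide against distance from the start of the transcript, treated libraries above and untreated ones below, with the minimum of 50 dashed. Treated depth stayed above the minimum except at the very start of the transcript and was lower in ITS1 than in the 5′ ETS, untreated replicate 1 ran close to the minimum, and all 3 untreated libraries rose steeply over the first part of 18S.

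The pattern along the RNA repeated between treated libraries. Over the 883 A and C of the 5′ ETS, 18S and ITS1 that met the depth minimum outside the 18S span, treated libraries were compared in pairs. The rates of replicates 1 and 2, 1 and 3, and 2 and 3 correlated with Pearson's r of 0.891, 0.857 and 0.901, and Spearman's rho of 0.859, 0.832 and 0.865. The untreated pairs gave r of 0.536, 0.657 and 0.714 and rho of 0.185, 0.166 and 0.306. These correlations are across nucleotides, which share base identity and a depth profile and are not independent replicates. No pair of libraries had more than 0.0953% of identical rates, and each was counted as its own sample.

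DMS raised the mutation rate of adenine most, of cytosine less, and of guanine and uracil little. In the 5′ ETS the mean rate over 154 adenines was 2.34%, 2.28% and 2.65% in treated libraries, against 0.118%, 0.0993% and 0.0470% in untreated ones. The groups lay far apart, and the difference was 2.34 ± 0.117 percentage points (SE, n = 3 libraries each). For the 96 cytosines the treated libraries had 1.52%, 1.55% and 1.51% and the untreated 0.169%, 0.218% and 0.107%, a difference of 1.36 ± 0.0345 points.

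In 18S the 393 adenines averaged 2.01%, 2.37% and 2.71% in treated libraries and 0.362%, 0.634% and 0.390% in untreated ones, a difference of 1.90 ± 0.218 points. Outside the span of raised untreated depth, 344 adenines had untreated means of 0.143%, 0.353% and 0.174%, and the difference was 2.16 ± 0.226 points. The 287 cytosines of 18S had 1.03%, 1.14% and 1.21% with DMS and 0.253%, 0.761% and 0.252% without it. Their difference was 0.704 ± 0.178 points, and 0.854 ± 0.103 points over the 259 outside the span.

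In ITS1 the 18 adenines had 3.10%, 2.60% and 2.79% in treated libraries, against 0.220%, 0.370% and 0.120% in untreated ones, a difference of 2.59 ± 0.165 points. The 12 cytosines had 0.320%, 0.352% and 0.355% with DMS, against 0%, 0.0994% and 0.103% without. Treated and untreated libraries did not overlap for adenine or cytosine in any of the 3 regions. Each of these 6 comparisons had an exact two-sided permutation p of 0.1, the smallest that 3 libraries against 3 can give, and 0.15 after Benjamini-Hochberg adjustment over the 12 combinations of region and base.

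Guanine and uracil, on whose pairing faces DMS acts little, moved less. Guanines of the 5′ ETS had 0.339%, 0.411% and 0.383% in treated libraries and 0.131%, 0.284% and 0.260% in untreated ones. That was a difference of 0.152 ± 0.0518 points, also without overlap (exact permutation p = 0.1, n = 3 each). In 18S the guanine difference was 0.138 ± 0.0540 points with overlap (exact permutation p = 0.2, n = 3 each). Uracils of 18S were at 0.368%, 0.174% and 0.232% with DMS, against 0.239%, 0.846% and 0.194% without it. Their difference of -0.17 points had an exact permutation p of 0.6 (n = 3 each), and untreated replicate 2 was the one high library.

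**Figure D2:**
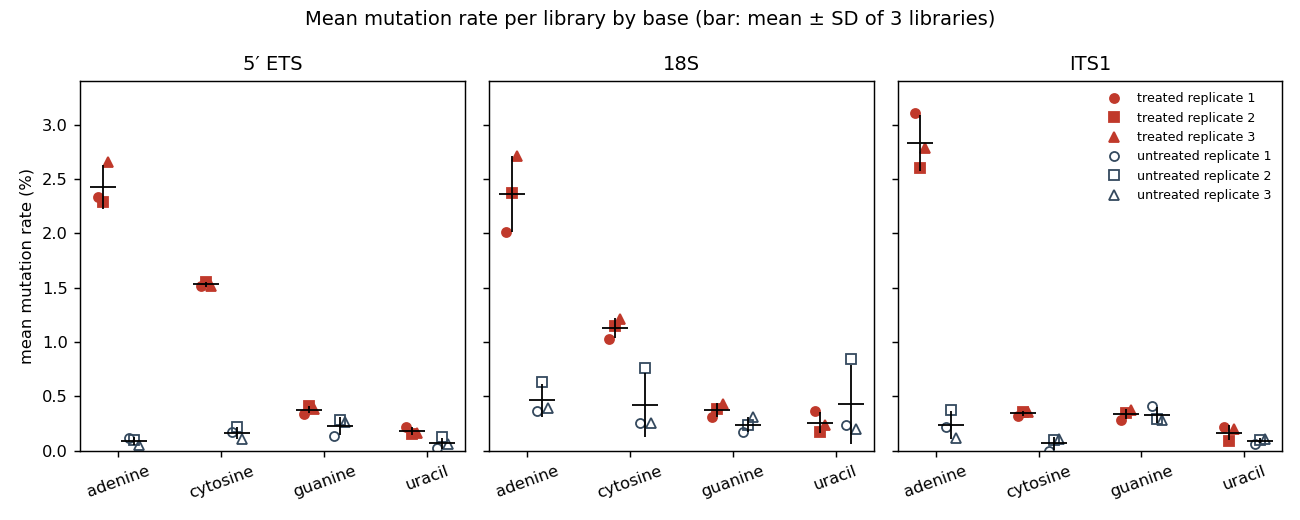
Mean mutation rate (%) of each base in the 5′ ETS, 18S and ITS1, with 1 point per library, treated libraries left of untreated ones, and a bar at the mean ± SD of 3 libraries. Treated adenines lay between 2.01% and 3.10% and treated cytosines between 0.320% and 1.55%, above the untreated libraries in each region, while guanine and uracil stayed below 1% in both groups.

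Within the treated libraries, the mean rate of cytosines was higher in the 5′ ETS than in 18S outside the span, by 1.54, 1.38 and 1.28 times in replicates 1, 2 and 3. Their median reactivity ran the other way, at 0.144 points in the 5′ ETS and 0.443 points in 18S with the span. At least 5 points were reached by 8 of 96 cytosines of the 5′ ETS and 3 of 287 of 18S. The 12 included ITS1 cytosines were at 0.325, 0.313 and 0.299 times the 18S level. This did not hold over all 57 cytosines of ITS1, which met the depth minimum once untreated replicate 1 was left out. Their treated means were 1.42%, 1.38% and 1.35%, above the 18S means of 0.984%, 1.12% and 1.19%. For adenine the 5′ ETS stood at 1.16, 0.951 and 0.963 times the 18S level, on both sides of 1. These ratios compare different nucleotides within a library and describe them without a test.

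Single nucleotides were tested with edgeR's quasi-likelihood test on mutation counts, with effective depth as the offset. The p-values were adjusted over all 1598 nucleotides of RDN37 that met the depth minimum and that carried 10 or more mutations in the 6 libraries combined. A nucleotide was called at an adjusted p under 0.05. Of the 2110 nucleotides 991 could be tested. Among the 960 A and C, 557 were called higher with DMS, 7 were called lower and 92 were tested without a call, while 304 had too few mutations for the test. Over all tested A and C of RDN37, 82.8% were called higher and 0.743% lower, so the 557 of 656 tested here, 84.9%, were close to that background. A nucleotide could enter the test through its treated libraries alone, and the share among those tested is therefore a description.

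Adenines rose more often than cytosines. In the 5′ ETS 108 of 154 adenines and 28 of 96 cytosines were called higher, in 18S 289 of 393 and 117 of 287, and in ITS1 13 of 18 and 2 of 12. Of the tested ones these were 95.6% of adenines and 77.8% of cytosines in the 5′ ETS, 89.2% and 70.5% in 18S, and 92.9% and 66.7% in ITS1, where the background over tested nucleotides of RDN37 was 90.5% for adenine and 64.2% for cytosine. Median reactivity over the included adenines was 1.20 points in the 5′ ETS, 1.76 in 18S and 2.11 in ITS1, and over cytosines 0.144, 0.443 and 0.0683 points. Reactivity in the 5′ ETS was the more unequal: 21 of its 154 adenines, 13.6%, exceeded 5 points, against 24 of 393, 6.11%, in 18S, whereas 1 point was exceeded by 55.8% and 70.5%. At the other end, 4 of 250 A and C of the 5′ ETS and 17 of 680 of 18S had no mutation in any treated library.

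**Figure D3:**
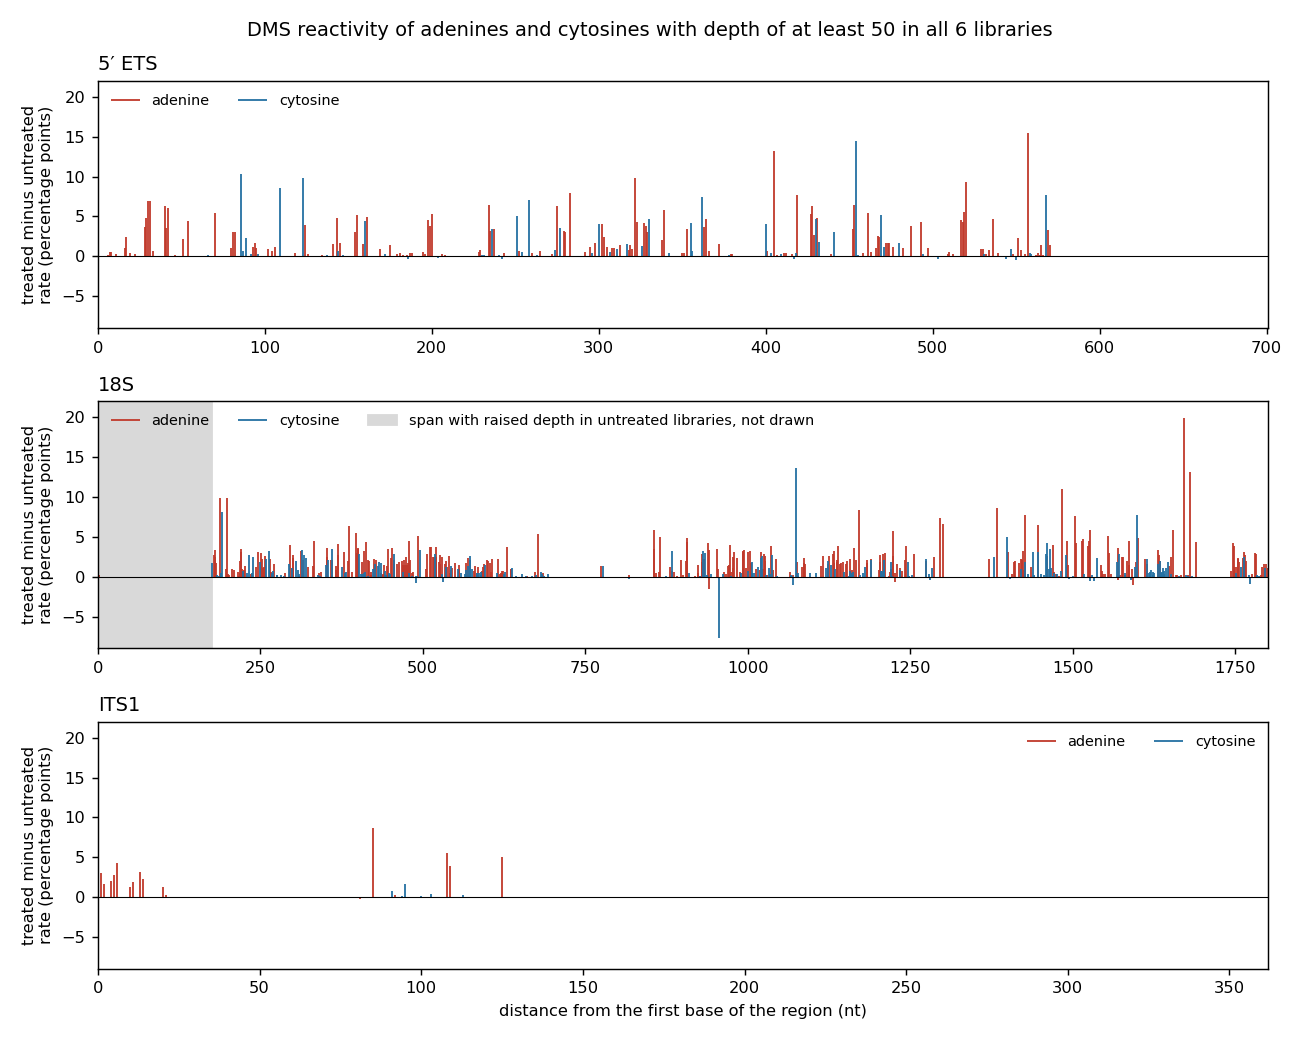
Treated minus untreated mutation rate (percentage points) of each included adenine and cytosine against distance from the first base of the 5′ ETS, 18S and ITS1, with the span of raised untreated depth in 18S shaded and not drawn. The 5′ ETS held tall separate peaks up to 15.5 points at A557, 18S a dense row of mostly low values with A1671 at 19.95 points, and gaps are nucleotides below the depth minimum.

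Reactivity in the 5′ ETS peaked at A557, in the part that leads to cleavage site A1. A557 had 15.5%, 13.0% and 18.1% in treated libraries, against 0%, 0.174% and 0% in untreated ones. All treated libraries were far above the untreated, by 15.5 ± 1.48 points (SE, n = 3 each, edgeR adjusted p = 2.00e-14). A520, in the same part, had 8.74%, 10.4% and 10.8% with DMS, against 1.85%, 0% and 0.1% without. It ends a run of 4 risen adenines, A517 to A520, whose treated means were 4.48% to 9.98%.

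The middle of the 5′ ETS held the next peaks. C454 had 14.5%, 15.4% and 14.9% with DMS and 0.847%, 0.164% and 0.223% without, a difference of 14.5 ± 0.350 points (edgeR adjusted p = 1.15e-13, n = 3 each). The treated libraries lay close together here, with an SD of 0.473 points. A405 had 12.1%, 13.0% and 16.0% in treated libraries, against 1.33%, 0% and 0% in untreated ones. At A322 the treated rates were 7.77%, 9.72% and 11.9%. None of 1059 untreated reads was mutated there, which allows a rate of up to 0.283%.

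In the first part of the 5′ ETS the leading nucleotides were all cytosines. C86 had 10.3%, 10.1% and 10.7% with DMS, against 0%, 0.104% and 0% without, C123 had 9.24%, 9.65% and 10.9%, against 0%, 0.170% and 0%, and C109 had 6.84%, 10.2% and 10.3%, against 1.35%, 0.266% and 0.0646%. These 8 nucleotides of the 5′ ETS were chosen among those called with treated libraries above untreated ones, so both were fixed by the choice. Their edgeR adjusted p was at most 7.24e-12.

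By parts, the first 270 nucleotides had 53 of 111 A and C called higher, with mean rates of 1.68%, 1.74% and 1.90% in treated libraries and 0.122%, 0.0950% and 0.0436% in untreated ones. The middle part, G271 to C480, had 63 of 95 called, with 2.48%, 2.41% and 2.56% against 0.0782%, 0.179% and 0.0765%. From U481 to A1 there were 20 of 44, with 1.90%, 1.79% and 2.26% against 0.304%, 0.196% and 0.123%. The middle part had the highest mean in each of the 3 treated libraries. Over the A and C of all 3 regions the share called was 58.0% and the median reactivity 1.06 points, against medians of 0.492, 1.27 and 0.451 points in the first, middle and last part.

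Along windows of 50 nucleotides, mean reactivity in the 5′ ETS was highest between G451 and G500, at 2.79 ± 0.0596 points with 19 of 22 A and C called. It was lowest between U201 and G250, at 0.975 ± 0.0939 points with 5 of 19 called. The last 100 nucleotides before A1 had no included A or C. Both windows are printed to show how the risen bases, in capitals, are spread.
5′ ETS G451 to G500: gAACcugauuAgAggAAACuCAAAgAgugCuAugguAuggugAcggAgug
5′ ETS U201 to G250: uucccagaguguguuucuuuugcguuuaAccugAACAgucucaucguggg
The window with high reactivity carried risen bases along its whole length, and the window with low reactivity carried them only at A229 and from A234 to A237.

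U3 pairs with 2 segments of the 5′ ETS, G281 to G291 and U470 to G479, which are printed here with 5 bases on either side, again with risen A and C in capitals.
5′ ETS G276 to C296: gCgAAggAuuugguggAuuAC
5′ ETS G465 to G484: gAAACuCAAAgAgugCuAug
The upstream segment holds a single adenine or cytosine, A283, which had 7.83%, 8.86% and 7.38% in treated libraries, against 0%, 0.1497% and 0% in untreated ones. Its reactivity of 7.97 ± 0.443 points was among the higher values of the 5′ ETS. The downstream segment holds 5, C471, A472, A473, A474 and A476, and all 5 were called higher, with reactivities of 1.20 to 1.68 points. A472 had 1.52%, 1.83% and 1.56% with DMS and no mutation in 1299 untreated reads, which allows a rate of up to 0.231%. Just upstream, the run A466 to C469 reached a treated mean of 5.14%, while within the segment the means of C471 to A474 were 1.32% to 1.74%. All 5 reactivities of the segment were at or above 1.20 points, the median of the 5′ ETS adenines.

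In 18S reactivity was highest at A1671, which lies with A1681 in helix 44, the long penultimate helix whose base forms the decoding site of the ribosome. A1671 had 16.7%, 20.1% and 23.0% in treated libraries and no mutation in 1122 untreated reads, which allows up to 0.267%. The difference was 19.95 ± 1.82 points (SE, n = 3 each, edgeR adjusted p = 8.06e-18). A1681 had 9.75%, 12.5% and 17.1% with DMS and no mutation in the untreated libraries, which allows up to 0.263%. At both, treated replicate 3 was the highest library and replicate 1 the lowest, as for the mean adenine rate of 18S. The window A1651 to C1700 had the highest mean reactivity in 18S outside the span, 2.78 ± 0.272 points, with 5 of its 17 included A and C called. Without A1671 and A1681 the other 15 averaged 0.949 points.

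The other leading nucleotides were spread over the domains. C1075, in the central domain, had 10.2%, 13.5% and 19.2% with DMS and 1.85%, 0.164% and 0% without, a difference of 13.6 ± 2.71 points. It is the highest of the 287 cytosines of 18S, of which 3 exceeded 5 points. In the 3′ major domain A1483 had 8.88%, 9.82% and 14.4%, A1384 had 8.23%, 8.48% and 9.62% and A1171 had 5.62%, 5.61% and 14.02% in treated libraries, while their untreated rates were 0% to 0.398%. At A1171 the reactivity of 8.32 ± 2.80 points rests on treated replicate 3 more than on the other 2. In the 5′ domain A198 had 6.85%, 11.6% and 11.3% and A188 had 8.02%, 9.86% and 11.7% with DMS, and neither had a mutation in its 1394 or 1263 untreated reads, which allows up to 0.215% and 0.238%. A call was a condition for choosing these 8, and their adjusted p-values were at most 9.70e-12 by edgeR.

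**Figure D4:**
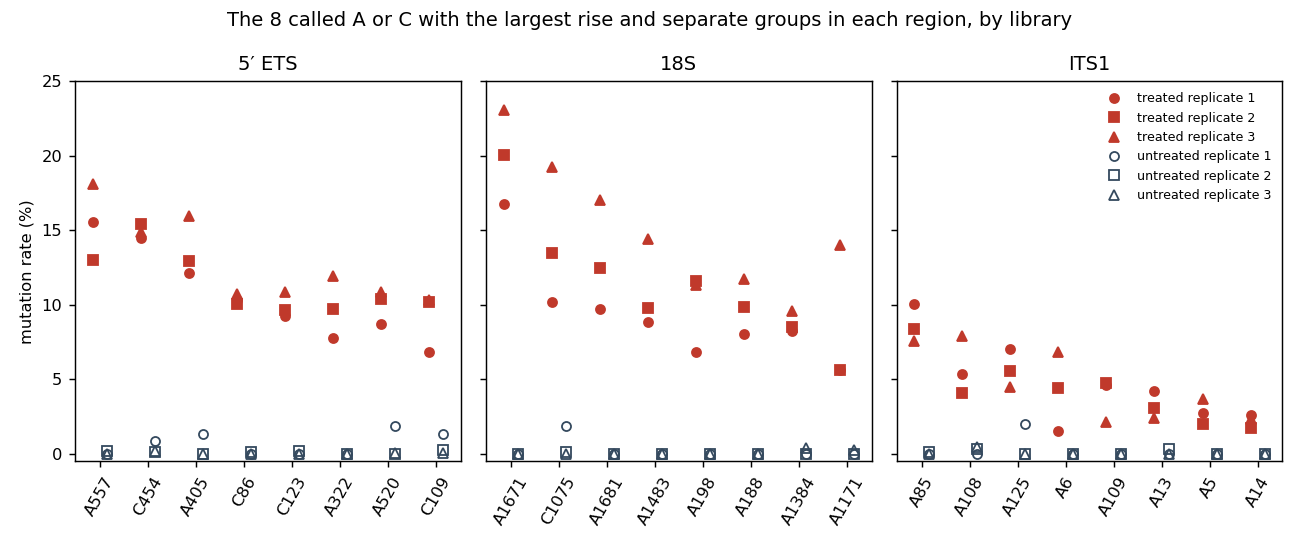
Mutation rate (%) in each library at the 8 A or C of the 5′ ETS, 18S and ITS1 with the highest reactivity among those called with non-overlapping groups, filled symbols for treated libraries to the left of open symbols for untreated ones. The choice of nucleotides fixes that treated points lie above untreated ones; A1671 reaches 23.0%, no untreated point passes 2%, and ITS1 A1, with a difference of 3.04 points but overlapping groups and no call, is left out.

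By domain, 199 of 293 A and C were called higher in the 5′ domain, 74 of 156 in the central domain, 102 of 172 in the 3′ major domain and 31 of 59 in the 3′ minor domain, which are 67.9%, 47.4%, 59.3% and 52.5% beside 58.0% over the 3 regions. Of the 293, 77 lie in the span of raised untreated depth. Mean treated rates were 1.64%, 1.92% and 2.00% in the 5′ domain, 1.35%, 1.58% and 1.85% in the central domain, 1.61%, 1.89% and 2.27% in the 3′ major domain and 2.01%, 2.10% and 2.45% in the 3′ minor domain. Untreated means were 0.526%, 1.05% and 0.531% in the 5′ domain and at most 0.539% in the other 3. The central domain had the lowest treated mean in each library and the 3′ minor domain the highest. The rank of the 3′ minor domain rests on A1671 and A1681, whose treated means were 19.95% and 13.1%. Without them its mean was no longer the highest in any treated library. By median reactivity the 5′ domain was highest, at 1.37 points, against 1.20 in the 3′ minor domain.

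Part of the central domain was nearly silent. Between G651 and C700 mean reactivity was 0.532 ± 0.0897 points, and 1 of 16 included A and C was called, the lowest of the 18S windows outside the span. The adenine in capitals is that one.
18S G651 to C700: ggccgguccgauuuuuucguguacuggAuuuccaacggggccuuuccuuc
The window holds 5 adenines among its 19 A and C, so base composition moves with its low mean. The next 50 nucleotides had no included A or C.

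Segments of 18S that pair with small nucleolar RNAs were open to DMS in part. Their counts, and those of the other segments described next, stand beside 59.7% of all included A and C of 18S called higher. U3 box A pairs with the very start of 18S, U9 to C25, where 7 of 8 A and C were called higher with treated means of 1.75%, 1.22% and 1.34%, against 0%, 0.0442% and 0.0210%. U14, which is needed for 18S production, pairs with G83 to G95, where 7 of 7 were called with 1.21%, 1.15% and 1.63%, against 0.0213%, 0.0488% and 0.0800%. The mean over the 3 treated libraries was 1.44% in the U3 segment and 1.33% in the U14 segment, below the 1.84% of all included A and C of 18S. Both segments lie wholly inside the span of raised untreated depth, where untreated reads were in excess. C14 and A93 were called there with overlapping groups, at 395528 and 239076 untreated reads. What part the excess plays in these calls was not tested. The strand A1137 to U1144 of the central pseudoknot, which joins the domains and forms late, had 4 of 5 called, with treated means of 2.57%, 2.69% and 2.69% against 0%, 0.871% and 0.347%. The uncalled one, A1138, had 4.95%, 2.27% and 4.61% in treated libraries, against 0%, 3.94% and 1.57% in untreated ones.

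In the region of snR30, a small nucleolar RNA needed for early cleavages, 5 of 13 included A and C were called between U830 and G885. A855 had 4.46%, 5.68% and 7.98% in treated libraries, against 0%, 0% and 0.508% in untreated ones, and A865 had 3.30%, 6.35% and 5.36%, against 0%, 0.131% and 0%. A869 showed no mutation in any of the 6 libraries, so high and silent adenines lay within 15 bases of each other.

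A974 and U999 are the targets of snR54 and snR31, small nucleolar RNAs that guide 2′-O-methylation and pseudouridylation. A974 had 0.813%, 1.26% and 0% with DMS and 0%, 0.175% and 0% without, too few mutations for the test. Its neighbour A973 had 8.17%, 4.08% and 5.21% in treated libraries, against 0%, 3.63% and 1.89% in untreated ones, and A979 had 1.64%, 3.14% and 4.46% with no mutation in the untreated libraries. Of the 20 A and C within 20 bases of A974, 9 were called higher, 45%, and 1 lower. Of the 18 around U999, 13 were called higher, 72.2%, among them A995, with 2.90%, 3.38% and 3.91% in treated libraries and no mutation in untreated ones. U999 itself was at 1.04%, 1.22% and 0.730% with DMS, against 0%, 0.849% and 1.08% without, and was not called (edgeR adjusted p = 0.822, n = 3 each).

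At the base of helix 44, which forms the decoding site, 9 of 13 A and C of the 5′ strand (U1630 to U1650) and 10 of 12 of the 3′ strand (A1750 to U1769) were called, 69.2% and 83.3% beside 59.7% in all of 18S. Treated means were 1.95%, 2.05% and 2.05% on the 5′ strand, against 0.382%, 0.885% and 0.362%, and 2.56%, 2.01% and 2.41% on the 3′ strand, against 0%, 0.836% and 0.349%. A1755 and A1756 are the adenines that read the codon-anticodon helix in the mature ribosome. A1756 had 1.21%, 1.94% and 2.41% with DMS and 0% in the 3 untreated libraries and was called. A1755 had 5.70%, 4.69% and 4.202%, against 0%, 6.30% and 1.46%, so its groups overlapped and it was not called. The 5-base run A1762 to A1766 was called throughout, with treated means of 2.00% to 4.01%.

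Downstream, helix 45 and the 3′ end of 18S (U1770 to A1800) were quieter, with 5 of 14 called and treated means of 1.09%, 1.03% and 1.49%, against 0.213%, 0.399% and 0.271%. Dim1 dimethylates the adjacent adenines A1781 and A1782 in the loop of helix 45. A1781 had 2.10%, 3.72% and 3.44% with DMS and 0%, 0.485% and 0% without, and was called (edgeR adjusted p = 3.37e-06, n = 3 each). A1782 had 3.47%, 4.86% and 6.29%, against 1.00%, 3.08% and 1.93%, without overlap but with an edgeR adjusted p of 0.0705.

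U1191, C1280, C1773 and G1575, also naturally modified, were not called. U1191, a hypermodified uridine near the P site that blocks base pairing, had 31.8%, 13.3% and 13.7% in treated libraries and 18.9%, 50.3% and 13.6% in untreated ones. The groups overlapped, with untreated replicate 2 highest (edgeR adjusted p = 0.363, n = 3 each), and without that library the log2 change was 0.42 in place of -0.53. C1280 and C1773, both acetylated by Kre33, had 0.732%, 2.13% and 1.67%, against 1.35%, 3.07% and 1.34%, and 1.02%, 0.144% and 0%, against 1.98%, 1.12% and 0.698%. G1575, methylated by Bud23, had 0.192%, 0.375% and 0.309% with DMS, against 1.43%, 0.504% and 0.210%. The edgeR adjusted p-values of these 3 were 0.371, 0.168 and 0.650 (n = 3 each). Their treated and untreated rates could not be told apart at this depth, which was 74, 101 and 70 reads in untreated replicate 1.

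In ITS1 the included nucleotides lay mainly in 2 stretches before the A2 cleavage site, and none lay past it. Of 30 A and C, 15 were called higher, 13 adenines and 2 cytosines. A85 had 10.1%, 8.40% and 7.57% in treated libraries, against 0%, 0.167% and 0% in untreated ones, a difference of 8.62 ± 0.735 points (edgeR adjusted p = 2.03e-12, n = 3 each). A108 had 5.36%, 4.11% and 7.91%, against 0%, 0.353% and 0.490%, A109 had 4.63%, 4.77% and 2.15%, against 0% in all 3, and A125 had 7.01%, 5.58% and 4.48%, against 2.00%, 0% and 0%. The start of ITS1, next to the 3′ end of 18S, was open at A5, A6, A13 and A14. A6 had 1.55%, 4.44% and 6.81% with DMS, A13 had 4.23%, 3.09% and 2.41%, A5 had 2.76%, 2.02% and 3.68% and A14 had 2.59%, 1.77% and 2.34%, and the untreated rate was 0% in all but 1 library at 1 of the 4. These 8 were likewise chosen among called nucleotides, and their edgeR adjusted p-values were at most 5.74e-05.

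Without untreated replicate 1 the whole of ITS1 met the depth minimum in the other 5 libraries. This selection was chosen after the depths had been seen, and so were the nucleotides it names. Before A2, 24 of 59 adenines and 7 of 33 cytosines were then called higher, and past A2 16 of 51 and 10 of 24. Of these, 26, 8, 20 and 11 had enough mutations for the test. In this setting 87.7% of the tested A and C of ITS1 were called higher, beside 88.9% in the 5′ ETS and 81.0% in 18S. Adenines before A2 averaged 2.40%, 2.47% and 2.36% in treated libraries, against 0.161% and 0.0848% in untreated replicates 2 and 3. Past A2 they averaged 2.04%, 2.12% and 2.15%, against 0.247% and 0.0429%. Both sides of the cleavage site were read and reactive, and for adenine the treated level before A2 was the higher one in each library.

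The highest rate in ITS1 then fell at A133, with 23.5%, 28.1% and 19.5% in treated libraries, against 0.749% and 0.680% in untreated ones (edgeR adjusted p = 1.11e-09 over 3 and 2 libraries). Its depth in untreated replicate 1 was 27, which kept it out of the main set. Its neighbour A134 had 9.01%, 6.82% and 7.69%, against 0% in both, and A149 had 6.08%, 9.04% and 6.45%, against 0% in both. Past A2, C262 had 4.88%, 8.21% and 7.59%, against 0% and 0.266%. C212, the last base before A2, had 4.38%, 1.90% and 7.76% with DMS and no mutation in untreated replicates 2 and 3 (edgeR adjusted p = 0.000187). Cytosines ran the other way from adenines, with 0.871%, 0.801% and 0.949% before A2 and 2.17%, 2.18% and 1.89% past it in treated libraries.

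Reactivity was set beside a predicted fold of the naked RNA. RNAplfold, which folds the sequence in short windows without proteins or small nucleolar RNAs, gave each base a probability of being unpaired, and bases were divided at 0.5. In the 5′ ETS 67 of 68 adenines predicted unpaired were called higher, against 41 of 86 predicted paired. Their treated means were 4.22%, 4.19% and 4.90%, against 0.8499%, 0.773% and 0.878%. For cytosines of the 5′ ETS, 15 of 19 predicted unpaired and 13 of 77 predicted paired were called, and treated means were 4.56%, 5.16% and 4.88%, against 0.766%, 0.666% and 0.684%. The 2 classes of the 5′ ETS lay well apart in each treated library. Over both classes 70.1% of its included adenines and 29.2% of its included cytosines were called higher.

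In 18S outside the span the gap was narrower. 185 of 220 adenines predicted unpaired were called, against 67 of 124 predicted paired, with treated means of 2.37%, 2.92% and 3.31%, against 1.36%, 1.48% and 1.78%. For cytosines 55 of 75 and 40 of 184 were called. Over all included nucleotides of 18S, with the span, 73.5% of adenines and 40.8% of cytosines were called. Mean reactivity of the unpaired minus the paired class was 3.56 points for adenine in the 5′ ETS and 1.29 points in 18S, and 4.15 and 1.45 points for cytosine. In ITS1 8 of 10 and 5 of 8 adenines were called, beside 72.2% of all its included adenines. Exceptions stood among the leading nucleotides: 5′ ETS C86 had an unpaired probability of 0.0989 with a reactivity of 10.3 points, and 18S A1171 and A1384 were also below 0.5. The prediction is not a measured structure, and the classes were not tested.

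**Figure D5:**
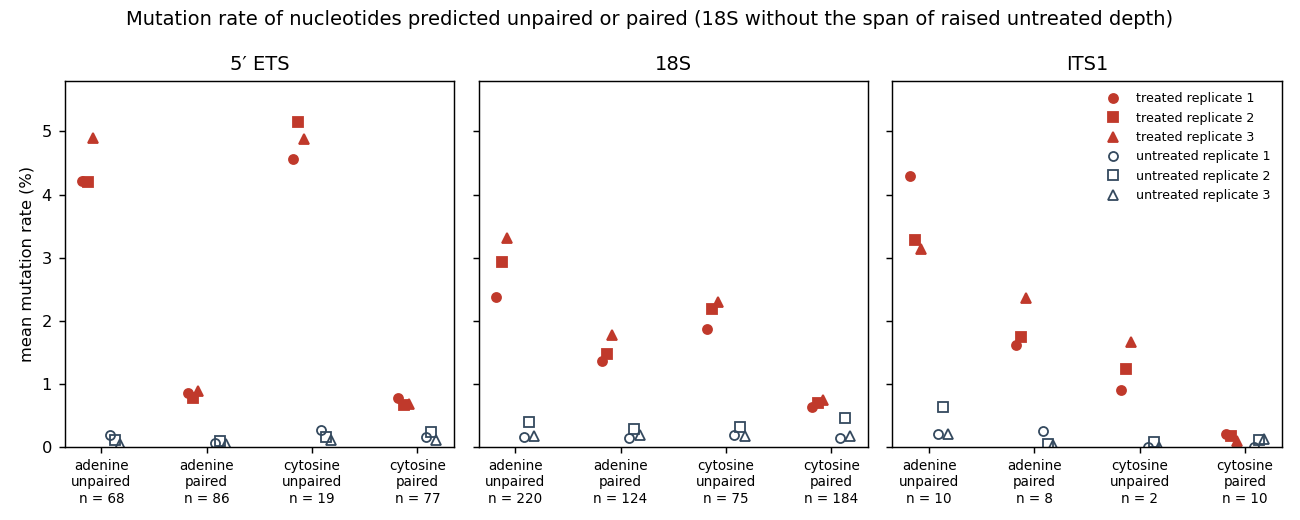
Mean mutation rate (%) of adenines and cytosines predicted unpaired or paired in the 5′ ETS, 18S outside the span and ITS1, with 1 point per library, treated left of untreated. Treated adenines predicted unpaired in the 5′ ETS lay between 4.19% and 4.90%, against 0.773% to 0.878% for those predicted paired, and the untreated points stayed below 0.7% throughout.

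Guanine and uracil were called higher at 28 nucleotides and the 4 bases together were called lower at 24. Over RDN37, 7.09% of tested guanines and uracils were called higher, and of the 335 tested here 8.36% were. The largest rise of these bases was at 5′ ETS U297, with 9.20%, 6.03% and 7.5% in treated libraries, against 0%, 5.69% and 1.93% in untreated ones (edgeR adjusted p = 0.0227, n = 3 each). It sits between the risen bases A295 to A298 and was not called in 11 of the 16 other settings that tested it. U478, inside the downstream U3 segment, had 2.51%, 1.42% and 1.22%, against 0%, 0.691% and 0.264%. 18S U1535 and U1272 were high in treated replicate 1 alone, at 4.26% and 4.81%, against at most 0.926% in any other treated library. The fifth, 18S G16, lies inside the span, as do 12 of the 28, and was at 0%, 0.548% and 2.97% with DMS, against 0%, 0.0669% and 0.0339%.

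Of the 24 lower calls 23 lay in 18S, 13 of them in the span, and 16 were uracils. Over RDN37, 1.88% of tested nucleotides were called lower. Untreated replicate 2 was the highest library at 21 of the 24, and 6 were called without it. The largest fall was at 18S A119, where 0.557%, 3.16% and 0% of reads were mutated in treated libraries, against 88.1%, 99.6% and 81.0% in untreated ones. U128 had 0.294%, 0.259% and 0%, against 29.7%, 88.4% and 14.9%, and C131 had 1.89%, 2.09% and 2.17%, against 31.1%, 58.6% and 26.5%. Most untreated reads at A119 thus differed from the listed base, while few treated reads did. The uracil U3 of 18S, next to the span, had 0.368%, 0% and 1.18%, against 7.69%, 59.7% and 1.85%. C114 had 2.45%, 2.11% and 2.71%, against 0%, 49.5% and 0.275%, and without untreated replicate 2 its log2 change was 3.12 in place of -3.02. Outside the span, C956 had 0.592%, 0% and 0% with DMS, against 1.82%, 21.7% and 0% without, and it was chosen after its values had been seen. What the untreated reads with these mismatches are was not tested.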

How the data were processed

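The deposited profiles hold, for each nucleotide of RDN37 and per the file headers, mutation counts, effective depth counts and a mutation rate given as a fraction. The fraction equals the ratio of the 2 counts within 5e-07. Bowtie2 is named in the submitters' processing notes, while the mutation counter, filters and build were not given in the sources used here. Region bounds came from the RDN37 features of a RefSeq table for R64. The 6 libraries were tested with edgeR 4.0.16 (R 4.3.3), using log effective depth as offset, no library factor and no replicate block. Tested nucleotides had depth of at least 50 in all 6 libraries and at least 10 mutations in total. Region means were compared by exact permutation over libraries with scipy 1.17.1. RNAplfold 2.7.2 used windows of 150 and a span of 100. DESeq2 1.42.0 and limma 3.58.1 were alternatives, and the fit was tested on simulated data.

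Named nucleotides were, per region, the 8 called A or C with the largest reactivity and non-overlapping groups, then the 5 called G or U with the largest rise, the 5 largest falls, the modified bases and the snoRNA targets. Others are members of the described segments. The nucleotides, lists and settings were chosen with earlier results of these data known. No source mentions molecular identifiers, so upper limits for 0 mutations, set at 3 reads, cover counting error only.

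Treated and untreated libraries with the same replicate number did not deviate together: the correlations of their deviations over 584 A and C were -0.18, -0.10 and 0.05. Pairs with unlike numbers ranged from -0.13 to 0.21. Untreated rates rest on few mutations at many A and C, so these correlations cannot exclude a shared preparation. The numbers were taken as names only.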

Additional observations from a re-analysis of the deposited data

How the results depend on the processing

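Untreated replicate 1 limited which nucleotides could be read, and counts fell with a higher depth minimum because fewer were tested. The share of tested A and C called in the 5′ ETS and 18S was 91.3% and 82.9%, against 91.4% and 81.3% at depth 100 and 94.1% and 90.3% at 200. On the main nucleotides DESeq2 called 73.2% and 65.1%, and with at least 1 mutation edgeR called 59.4% and 61.2%. In 18S 490 A and C were tested, 418 of them outside the span of raised untreated depth. At depth 100 and 200 there were 91 and 31. Untreated replicate 1 had a median depth of 70 in 18S, and 100 nucleotides of the span exceeded 4 times that. The 18S shares at depth 100 and 200 therefore draw heavily on the span. The main counts of A and C called higher were 136 in the 5′ ETS, 406 in 18S and 15 in ITS1, with 28 G and U higher and 24 nucleotides lower. At a minimum depth of 100 they were 85, 74 and 0, with 18 G and U higher and 7 lower, and at 200 they were 16, 28 and 0, with 7 and 1. At 20 ITS1 had 56. With at least 30 mutations the counts were 85, 193 and 6, with 13 G and U, since fewer nucleotides were tested. Over 5 libraries, without untreated replicate 1, ITS1 had 57; this setting and the one without the 18S span were chosen after seeing the data. DESeq2 left 9 G and U higher and 10 lower (109, 319 and 11 A and C), a library factor from G and U 17, and the 18S span left out 17 and 12. With untreated replicate 3 alone as background 5 were lower. Leaving out 1 library gave 18 to 30 G and U, lowest without treated replicate 2, and 6 to 28 lower calls, lowest without untreated replicate 2. The same fits gave 130 to 135, 378 to 413 and 14 to 17 A and C higher.

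The replicate block gave 128, 385 and 15 A and C and 16 G and U higher. Whether equal replicate numbers pair the samples is not known.

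Mean reactivity in ITS1 at depth 20 was 2.17 points for A, 1.17 for C and 0.102 for G, and over 5 libraries 2.13 and 1.26 for A and C. In 18S it was 0.443 for A and 0.124 for C at depth 100. At depth 200 it was -2.35 for A and 0.387 for G in 18S, and 2.58 for A, -0.0061 for C and 0.0357 for U in the 5′ ETS. These 18S means include the span, where A119 alone had a reactivity of -88.3 points. Medians over nucleotides were 1.20, 0.144 and 0.0375 for A, C and U in the 5′ ETS and 2.11 and 0.0683 for A and C in ITS1. With RNAplfold windows of 300, unpaired minus paired C in the 5′ ETS was 4.30 points.

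The log2 change turned at 18S U1272 (-0.95 without treated replicate 1), and without untreated replicate 2 at C114 (3.12), U1191 (0.42) and C1280 (0.10). Against untreated replicate 3 alone it turned at C114 (2.96), U1191 (0.56), C1280 (0.11), U999 (-0.085) and G1575 (0.42), and with the library factor at U999 (-0.025). Over the fits without 1 library the change ranged from -0.95 to 2.00 at U1272, -3.72 to 3.12 at C114, -1.08 to 0.42 at U1191 and -0.94 to 0.10 at C1280. The mean reactivity of U in 18S then ranged from -0.28 to 0.0412 points, highest without untreated replicate 2, and that of G in ITS1 from -0.01 to 0.0521. The 24 A and C named by the rule for rises, 8 per region, stayed called in each setting that tested them. Causes not named here were not tested.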

Other observations

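The base next to a cytosine moved with its reactivity, while that next to an adenine did so less. Outside the 18S span, cytosines with adenine on the 5′ side were called higher at 41 of 82, with a mean reactivity of 1.25 ± 0.109 points (SE over libraries). Those preceded by cytosine were called at 12 of 77, with 0.366 ± 0.0690 points. Cytosines preceded by guanine or uracil lay between these, with 38 of 101 and 34 of 107 called. On the 3′ side, cytosines followed by adenine were called at 48 of 96, with 1.49 ± 0.108 points, and those followed by cytosine at 15 of 77, with 0.744 ± 0.0396 points. With guanine or uracil on that side 31 of 93 and 31 of 101 were called. Of all included nucleotides, with the span, 37.2% of cytosines and 72.6% of adenines were called higher. For adenine the share called lay between 69.5% and 74.7% over the 4 bases on the 5′ side, and mean reactivity between 1.96 and 2.46 points. Whether these classes differ in pairing was not tested.

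Unbroken runs of risen nucleotides are listed as a description. They lie in stretches made almost only of A and C, and 58.0% of all included A and C were called higher. Whether the runs are longer than that share alone would give was not tested. The longest unbroken run in the 5′ ETS was A427 to C432, 6 bases with treated means of 1.74% to 6.40% and untreated means of at most 0.1001%. C326 to C330 and C362 to A366 were runs of 5 bases with treated means of 1.35% to 4.71% and 0.461% to 7.66%, and the guanine G365 was called within the second of these. In 18S outside the span the runs of 5 bases were A1019 to A1023, at 0.915% to 3.04%, C1207 to A1211, at 0.722% to 3.39%, and A1762 to A1766.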
